A study of Rattus norvegicus with 32 samples.

Results

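LSECs (liver sinusoidal endothelial cells) of rats with cirrhosis were compared with LSECs of rats with fibrosis in 11 of the 32 libraries of the series, 6 of cirrhotic and 5 of fibrotic rats, chosen by their sample labels alone. All were male Wistar Han rats that inhaled CCl4 (carbon tetrachloride), a toxin that is activated in hepatocytes and scars the liver when given repeatedly, and that drank water with phenobarbital, a drug that induces the enzymes which activate CCl4. The fibrotic rats were labelled as treated for 6 weeks. The cirrhotic rats were labelled only as CCl4 treated, and their 12 to 14 weeks come from the description of the series. In both groups LSECs were isolated some days after the last exposure by perfusion and digestion of the liver and centrifugation through an iodixanol gradient, so that density and not a surface marker selected the cells. Libraries of 6 healthy Wistar Han rats, which received no CCl4, and of 5 rats with acute injury after 2 weeks of CCl4 served as reference levels. The acute rats were also male Wistar Han rats of the CCl4 model with phenobarbital. The main methods of the study do not state whether the healthy rats drank phenobarbital, nor their sex and age. Length of exposure, age of the rats and stage of disease differed together between fibrosis and cirrhosis, and their parts in a difference cannot be told apart. The labels name no sequencing run or date, so that a technical difference between sets of libraries cannot be told apart from stage either.

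LSECs line the hepatic sinusoids. They have open fenestrae without a basement membrane, they clear waste molecules from the blood through scavenger receptors, and they release nitric oxide and paracrine factors, called angiocrine, that act on hepatocytes and stellate cells. In chronic liver disease these cells are known to lose fenestrae and scavenger receptors and to take on features of capillary endothelium, a change known as capillarization, and stellate cells next to them turn into matrix-producing cells. The comparison asks how the transcriptome of these cells moves from the fibrotic to the cirrhotic stage.

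Total expected counts ranged from 28205908 to 30679815 in the fibrotic libraries and from 38812871 to 46464289 in the cirrhotic libraries, so that depth did not overlap between the groups. Mitochondrial genes took 1.62% to 2.01% of the counts in fibrosis and 1.33% to 1.77% in cirrhosis. The leading principal component held 80.6% of the variance and separated the groups, and the next held 3.93%. Markers of sinusoidal endothelium were present in every library, with summed levels of 5900 to 7960 CPM (counts scaled to library size and TMM factor) in fibrosis and 26000 to 33600 CPM in cirrhosis. Distances between libraries on the log2 scale of all tested genes were 63.1 to 98.8 within groups and 213 to 253 between them.

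More genes differed between cirrhosis and fibrosis than did not. Of 15186 genes tested, 9686 (63.8%) were differentially expressed genes (DEG), for which limma-voom gave a difference above 1.5-fold at an adjusted p-value below 0.05. Of all tested genes, 5202 (34.3%) were higher and 4484 (29.5%) lower in cirrhosis, and these shares are the background against which the counts of each gene group are to be read. With every library thinned to the smallest total, 9429 genes were DEG. The median log2 fold change over all tested genes was 0.04, and -0.07 with library size as the only scaling. A difference above 16-fold was reached by 624 DEG that were higher and by 145 that were lower in cirrhosis. For 9612 genes (63.3%) no fibrotic library overlapped any cirrhotic one. In these bulk libraries, fewer cells of a type and less RNA per cell cannot be told apart.

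**Figure D1:**
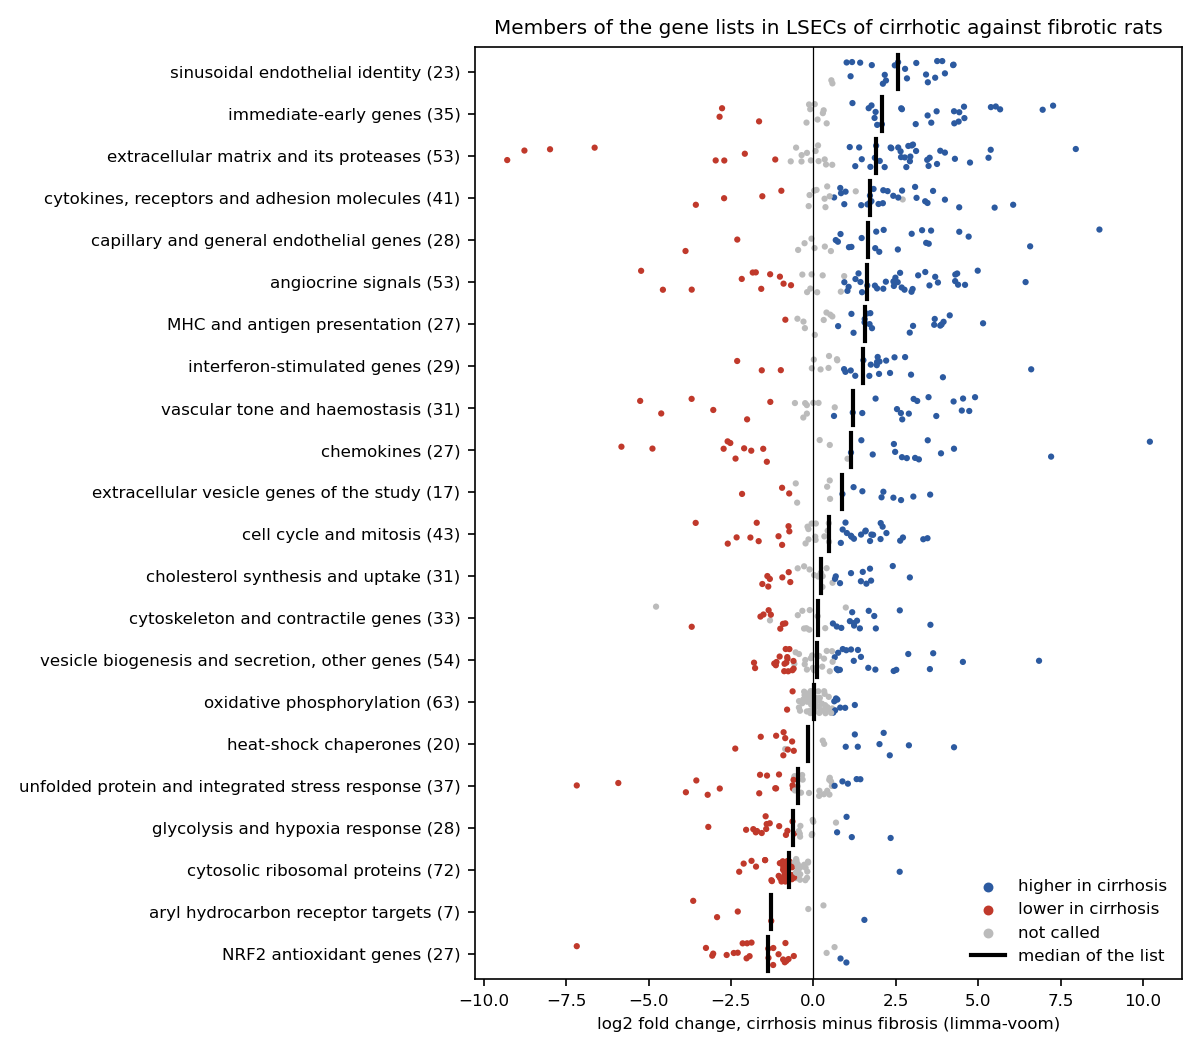
Log2 fold change (limma-voom, cirrhosis minus fibrosis) of the tested members of 22 gene lists, with 1 point per gene, blue for DEG higher in cirrhosis, red for DEG lower in cirrhosis and grey for genes that were not DEG. Black bars mark the list medians, which run from -1.36 for NRF2 antioxidant genes to 2.57 for sinusoidal endothelial identity.

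Genes that characterise sinusoidal endothelium were higher in cirrhosis than in fibrosis. Of 23 tested members of this list, 21 were higher and none lower, with a median log2 fold change of 2.57 against 0.04 over all tested genes. Markers of Kupffer cells and macrophages, given below, were higher too, and the part of these cells in this list was not tested. Stab2, a scavenger receptor that clears hyaluronan, was at 201, 238, 180, 191 and 88.7 CPM in the fibrotic libraries and at 2584 to 3979 CPM (median 3288) in the cirrhotic ones. Every cirrhotic library lay above every fibrotic one, and Stab2 rose by 4.25 log2 units (SE 0.24, adjusted p = 1.27e-08). Here and below, differences are limma-voom log2 fold changes of cirrhosis over fibrosis with their standard error (SE), in log2 units. Kdr, the main receptor for VEGF, was at 274, 347, 263, 283 and 199 CPM in fibrosis and at 2649 to 3620 CPM (median 2966) in cirrhosis, again without overlap, and rose by 3.47 log2 units (SE 0.14, adjusted p = 7.68e-10). Mrc1, the mannose receptor, rose by 4.24 log2 units (SE 0.19, adjusted p = 1.94e-09), from 68.1 to 156 CPM to 1719 to 2337 CPM. Fcgr2b, an Fc receptor that removes immune complexes, rose by 2.78 log2 units (SE 0.17, adjusted p = 2.02e-08), from 324 to 687 CPM to 2752 to 3687 CPM. Stab1, a scavenger receptor related to Stab2, rose by 2.84 log2 units (SE 0.14, adjusted p = 4.54e-09) to 932 to 1476 CPM, below its 2848 to 7161 CPM in healthy LSECs. Lyve1, a hyaluronan receptor, rose by 1.77 log2 units (SE 0.096, adjusted p = 8.72e-09). Dnase1l3, a secreted DNase, rose by 3.69 log2 units (SE 0.32, adjusted p = 4.84e-07). The lectin genes Clec4m and Clec4g rose by 3.99 and 3.42 (log2), and the transcription factor gene Maf rose by 3.91. Gata4, a transcription factor needed for sinusoidal identity, stayed under the fold-change threshold (0.55 log2 units, SE 0.12, adjusted p = 0.00108), although its 209 to 296 CPM in fibrosis and 298 to 413 CPM in cirrhosis did not overlap, and healthy LSECs had 576 to 961 CPM.

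Genes of capillary and general endothelium were also higher in cirrhosis, in 20 of 28 tested members, with 2 lower and a median of 1.67. Vwf, which carries coagulation factor VIII and tethers platelets, was at 1392 to 3496 CPM (median 2136) in cirrhosis against 11.7, 30.8, 20.7, 23.9 and 38.3 CPM in fibrosis. It rose by 6.58 log2 units (SE 0.32, adjusted p = 3.72e-09) with no overlap, and healthy LSECs, at 1119 to 3883 CPM, lay with the cirrhotic ones. Plvap, which forms the diaphragms of capillary fenestrae, was at 3.24, 10.1, 4.52, 6.74 and 7.67 CPM in the fibrotic libraries and at 116 to 229 CPM (median 166) in the cirrhotic ones and rose by 4.71 log2 units (SE 0.29, adjusted p = 2.49e-08). Healthy LSECs had 120.3 to 490.3 CPM of Plvap, with a median of 370.5 CPM above all cirrhotic libraries. Cd34, a marker used for capillarized endothelium, rose by 3.42 log2 units (SE 0.36, adjusted p = 2.73e-06), from 1.13 to 3.71 CPM to 20.7 to 42.9 CPM. Its 5.65 to 26.7 CPM in healthy LSECs overlapped the cirrhotic range. Esm1 and Apln, known from sprouting endothelial tip cells, were the 2 members that fell. Esm1 was at 145, 503, 398, 334 and 292 CPM in fibrosis and at 9.61 to 43.2 CPM (median 25.3) in cirrhosis and fell by 3.88 log2 units (SE 0.41, adjusted p = 2.95e-06), and Apln fell by 2.31 log2 units (SE 0.33, adjusted p = 3.7e-05). Cav1, the main protein of caveolae, was not a DEG (-0.27 log2 units, SE 0.20, adjusted p = 0.242), with 63.2 to 108 CPM in fibrosis and 44.4 to 104 CPM in cirrhosis.

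**Figure D2:**
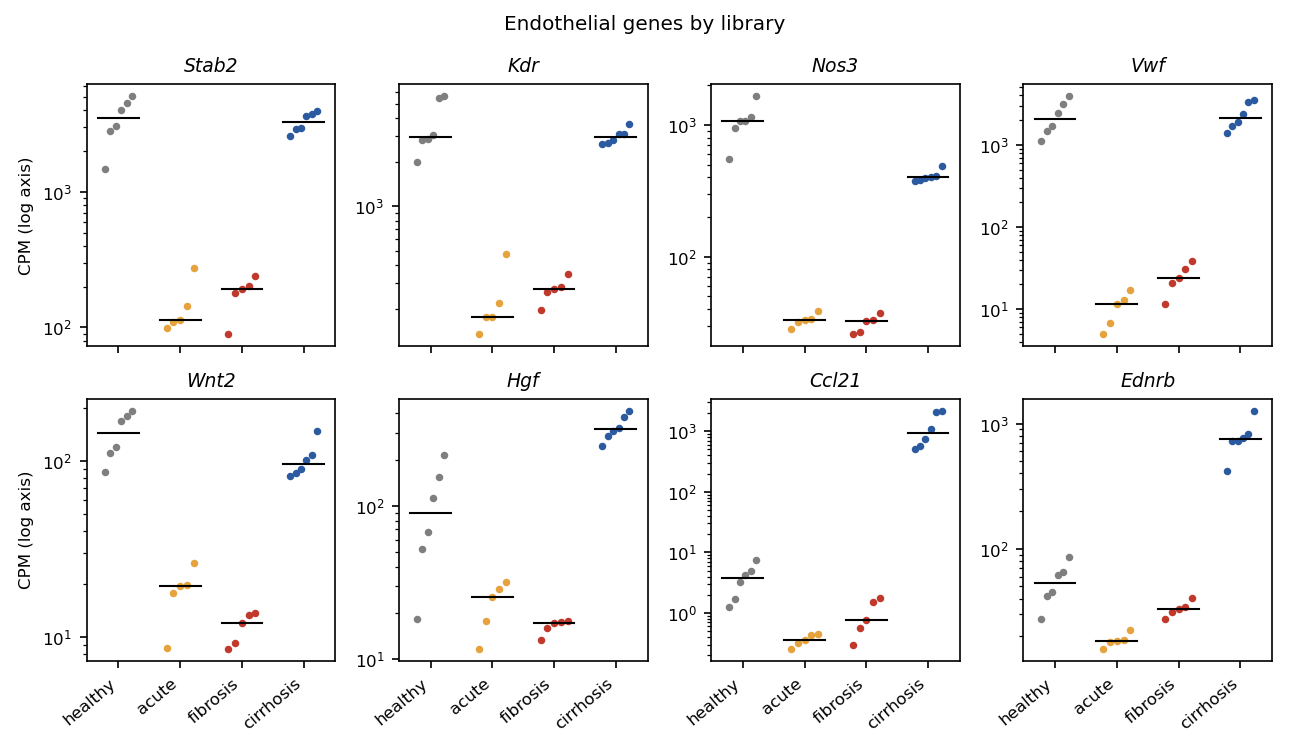
CPM on a log axis of 8 endothelial genes in the 22 libraries of the CCl4 experiment, with 1 point per library and a bar at the group median. In all 8 panels the cirrhotic libraries lie above the fibrotic ones, and for Hgf, Ccl21 and Ednrb they also lie above the healthy libraries.

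Among genes of vascular tone and haemostasis, 17 of 31 tested members were higher and 6 lower in cirrhosis. Nos3, the endothelial nitric oxide synthase, was at 374 to 493 CPM (median 401) in cirrhosis against 32.6, 37.1, 26.7, 33 and 25.6 CPM in fibrosis and rose by 3.73 log2 units (SE 0.11, adjusted p = 1.68e-10). Healthy LSECs had 551 to 1651 CPM, above all cirrhotic libraries. Klf2, a flow-sensing transcription factor that acts on Nos3 and Thbd, was at 6.83, 6.3, 7.85, 6.14 and 6.53 CPM in the fibrotic libraries and at 131 to 384 CPM (median 193) in the cirrhotic ones and rose by 4.90 log2 units (SE 0.30, adjusted p = 2.52e-08). Thbd (thrombomodulin), an anticoagulant surface protein, rose by 4.54 log2 units (SE 0.15, adjusted p = 2.6e-10) to 1204 to 1577 CPM. Ednrb, the endothelin B receptor, was at 31, 27.3, 33.3, 40.2 and 34.2 CPM in fibrosis and at 418 to 1261 CPM (median 750) in cirrhosis and rose by 4.50 log2 units (SE 0.21, adjusted p = 2.92e-09). Its 27.2 to 86.4 CPM in healthy LSECs lay below every cirrhotic library. Edn1, the endothelin precursor, was not a DEG (0.16 log2 units, SE 0.28, adjusted p = 0.622).

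Plat, the tissue plasminogen activator, was at 649 to 1707 CPM (median 879) in cirrhosis against 24.2, 47.5, 36, 44.9 and 26.8 CPM in fibrosis and rose by 4.73 log2 units (SE 0.26, adjusted p = 1.11e-08). Ptgs1, the constitutive cyclooxygenase, rose by 3.49 log2 units (SE 0.20, adjusted p = 1.29e-08), whereas Ptgs2, the inducible one, fell by 1.31 log2 units (SE 0.20, adjusted p = 7.14e-05). Adm, the vasodilator adrenomedullin, was at 693, 676, 798, 546 and 669 CPM in the fibrotic libraries and at 19.4 to 39.6 CPM (median 27.8) in the cirrhotic ones and fell by 4.62 log2 units (SE 0.17, adjusted p = 4.84e-10). F3 (tissue factor) and Ptges (prostaglandin E synthase) fell by 3.04 and 5.25 on the log2 scale.

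Of 53 tested angiocrine signals and their targets, 34 were higher and 11 lower in cirrhosis. Wnt2 and Wnt9b are the endothelial Wnt ligands that maintain hepatocyte zonation. Wnt2 was at 9.18, 13.2, 12, 8.49 and 13.7 CPM in fibrosis and at 82.1 to 148 CPM (median 95.9) in cirrhosis and rose by 3.18 log2 units (SE 0.19, adjusted p = 1.88e-08). Wnt9b was at 38.2 to 101 CPM (median 51.7) in cirrhosis against 0.631, 0.936, 0.698, 0.718 and 0.379 CPM in fibrosis and rose by 6.44 log2 units (SE 0.66, adjusted p = 2.26e-06). Rspo3, which amplifies Wnt signals, was not a DEG (-0.09 log2 units, SE 0.35, adjusted p = 0.815). Hgf, the hepatocyte growth factor, was at 15.9, 13.2, 17.8, 17 and 17.5 CPM in the fibrotic libraries and at 246 to 414 CPM (median 315) in the cirrhotic ones and rose by 4.30 log2 units (SE 0.14, adjusted p = 2.6e-10), to levels above the 18.3 to 215 CPM of healthy LSECs. Dll4, a Notch ligand, rose by 4.60 log2 units (SE 0.21, adjusted p = 2.32e-09), and the Notch targets Hes1, Hey1 and Heyl rose by 3.52, 3.78 and 4.30 (log2). Healthy LSECs had 631 to 936 CPM of Dll4, above all 183 to 310 CPM of the cirrhotic libraries.

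The BMP ligands of LSECs, which set hepatic iron sensing, differed from each other. Bmp2 rose by 1.07 log2 units (SE 0.093, adjusted p = 5.27e-07), and Bmp6 was at 216, 264, 217, 233 and 233 CPM in fibrosis and at 46.1 to 61.6 CPM (median 50.5) in cirrhosis and fell by 2.17 log2 units (SE 0.085, adjusted p = 7.18e-10). Pgf, placental growth factor, was at 2.17 to 3.56 CPM (median 3.17) in cirrhosis against 101, 107, 104, 121 and 128 CPM in fibrosis and fell by 5.23 log2 units (SE 0.14, adjusted p = 1.04e-10). Ctgf, a profibrotic matricellular factor, was at 315, 592, 334, 335 and 290 CPM in the fibrotic libraries and at 18.2 to 41.2 CPM (median 27.5) in the cirrhotic ones and fell by 3.69 log2 units (SE 0.23, adjusted p = 2.38e-08). Inhba, Vegfa and Pdgfa fell by 4.57, 1.75 and 1.02 on the log2 scale. Igfbp3, a carrier of insulin-like growth factors, rose by 4.99 log2 units (SE 0.39, adjusted p = 1.94e-07). Angpt2, an antagonist of the Tie2 receptor, fell by 0.68 log2 units (SE 0.21, adjusted p = 0.0102) with overlapping libraries, of 28 to 47.1 CPM in fibrosis and 15.4 to 36.3 CPM in cirrhosis, and it stayed under the fold-change threshold without cirrhotic library 4 or 5. Pdgfb was not a DEG (-0.05 log2 units, SE 0.21, adjusted p = 0.819).

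Immediate-early genes, which respond within minutes to many stimuli, were higher in cirrhosis in 24 of 35 members, and 3 were lower. Fosb was at 29.8, 36.5, 53.8, 25.8 and 38.1 CPM in fibrosis and at 3783 to 8575 CPM (median 5225) in cirrhosis, and rose by 7.27 log2 units (SE 0.23, adjusted p = 2.54e-10). Fos was at 1377 to 3750 CPM (median 1769) in cirrhosis against 13.5, 13.4, 41, 9.96 and 11.5 CPM in fibrosis, and rose by 6.96 log2 units (SE 0.35, adjusted p = 5.18e-09). Both encode subunits of the AP-1 transcription factor, and the groups were separated by more than 1 order of magnitude in every pair of libraries. Egr1, a zinc-finger factor, rose by 5.66 log2 units (SE 0.27, adjusted p = 3.52e-09) and Nr4a1, a nuclear receptor, by 4.58 log2 units (SE 0.18, adjusted p = 6.12e-10). Jun rose less, by 1.68 log2 units (SE 0.18, adjusted p = 3.53e-06). Fosl1 and Dusp2 fell by 2.85 log2 units (SE 0.18, adjusted p = 2.94e-08) and 2.77 log2 units (SE 0.27, adjusted p = 1.24e-06). Healthy LSECs had 7968 to 15860 CPM of Fosb and LSECs of acute injury 4.05 to 32.6 CPM. Of 26 members with an entry in the RefSeq promoter table, 6 held the cAMP response element TGACGTCA in the 250 bases before the gene start. They were Jund, Ier2, Btg2 and Dusp1, which rose, and Maff and Ppp1r15a, which were not DEG. None of the genes given with values above was among them. The CArG box, CCWWWWWWGG with W for A or T, stood in 4 of 26, namely Egr1, Egr2 and Zfp36, which rose, and Dusp5, not a DEG. Of all promoters of that length, 1.59% held TGACGTCA and 1.5% the CArG box. These shares are per entry, whereas a member counted if any of its entries matched.

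Heat-shock chaperones went both ways, with 8 of 20 higher, 9 lower and a median of -0.16. Hspa1a, the inducible HSP70, was at 375, 255, 209, 192 and 820 CPM in the fibrotic libraries and at 3747 to 12450 CPM (median 5520) in the cirrhotic ones and rose by 4.27 log2 units (SE 0.41, adjusted p = 1.29e-06). Its neighbouring and nearly identical copy Hspa1b was not a DEG (0.28 log2 units, SE 0.30, adjusted p = 0.398), and reads that fit both copies make each of the values uncertain. Hsp90aa1 rose by 2.90 log2 units (SE 0.44, adjusted p = 7.25e-05), and the co-chaperone Stip1 and the heat-shock factor Hsf2 fell by 1.13 log2 units (SE 0.20, adjusted p = 0.000244) and 1.60 log2 units (SE 0.10, adjusted p = 2.96e-08).

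Chemokines split into a set that rose (14 of 27) and a set that fell (10). Ccl21, which guides lymphocytes and dendritic cells and is made by lymphatic endothelium and lymphoid stroma, was at 1.75, 0.562, 0.299, 0.775 and 1.52 CPM in fibrosis and at 505 to 2144 CPM (median 918) in cirrhosis. It had the largest rise among all genes named by rule, 10.21 log2 units (SE 0.84, adjusted p = 3.27e-07), and its 1.24 to 7.56 CPM in healthy LSECs and 0.253 to 0.445 CPM in acute injury lay below every cirrhotic library. Of 9 markers of lymphatic endothelium 8 were higher in cirrhosis, their summed level was 2250 to 2680 CPM in fibrosis and 4140 to 6190 CPM in cirrhosis, none was at 0, and their part in the result was not tested. Ccl21 and Lyve1 belong to this marker list themselves, and the summed level contains the rise of both. Lyve1, also a sinusoidal gene, was at 529 to 710 CPM in fibrosis and at 1800 to 2222 CPM in cirrhosis. The sum of the other markers was not computed. Cxcl10, an interferon-induced chemokine for T cells, rose by 3.47 log2 units (SE 0.39, adjusted p = 5.23e-06), and Ccl24 rose by 4.26 log2 units (SE 0.28, adjusted p = 4.92e-08). Among the chemokines that fell was Cxcl1, a neutrophil attractant, which was at 777 to 1292 CPM (median 1013) in cirrhosis against 3778, 3936, 4150, 3816 and 3149 CPM in fibrosis and fell by 1.89 log2 units (SE 0.14, adjusted p = 1.11e-07). Cxcl3, its relative, was at 233, 206, 199, 367 and 266 CPM in the fibrotic libraries and at 1.39 to 10.2 CPM (median 5.13) in the cirrhotic ones and fell by 5.82 log2 units (SE 0.38, adjusted p = 4.66e-08). Ccl2, the main monocyte attractant, was at 2317, 2444, 2289, 2694 and 2534 CPM in fibrosis and at 229 to 716 CPM (median 376) in cirrhosis and fell by 2.60 log2 units (SE 0.27, adjusted p = 2.43e-06). Ccl7 fell by 2.36 log2 units (SE 0.28, adjusted p = 7.03e-06).

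Of 41 cytokines, receptors and adhesion molecules, 27 were higher and 4 lower. Icam1, a leukocyte adhesion molecule, was at 3561 to 5808 CPM (median 4857) in cirrhosis against 423, 391, 502, 465 and 487 CPM in fibrosis and rose by 3.39 log2 units (SE 0.12, adjusted p = 3.28e-10). Selp (P-selectin), Vcam1 and Icam2 rose by 3.63 log2 units (SE 0.40, adjusted p = 4.48e-06), 1.98 log2 units (SE 0.23, adjusted p = 5.87e-06) and 4.42 log2 units (SE 0.14, adjusted p = 2.6e-10). Tnfsf10, the death ligand TRAIL, was at 8.12, 4.53, 4.86, 3.59 and 1.46 CPM in the fibrotic libraries and at 149 to 201 CPM (median 177) in the cirrhotic ones and rose by 5.50 log2 units (SE 0.29, adjusted p = 7.99e-09). Il6 rose by 2.12 log2 units (SE 0.20, adjusted p = 9.46e-07), from 5.19 to 13.1 CPM to 27.1 to 43 CPM, and healthy LSECs had 0.616 to 5.69 CPM. Il1b rose by 1.72 log2 units (SE 0.65, adjusted p = 0.029), but its libraries overlapped (14.3 to 111 CPM and 28.3 to 273 CPM), and without 1 of the cirrhotic libraries 1, 4 and 5 or the fibrotic libraries 13 and 17 it was not a DEG. The colony-stimulating factors moved the other way. Csf2 was at 178, 209, 169, 254 and 162 CPM in fibrosis and at 13.1 to 21.1 CPM (median 16.4) in cirrhosis and fell by 3.57 log2 units (SE 0.15, adjusted p = 9.29e-10), and Csf3 fell by 2.71 log2 units (SE 0.24, adjusted p = 6.99e-07). Markers of Kupffer cells and macrophages were higher in cirrhosis in 15 of 18 members, with a summed level of 362 to 1050 CPM in fibrosis and 2250 to 4740 CPM in cirrhosis. Timd4, a marker of resident Kupffer cells, had no counts in any fibrotic library and passed the low-count filter only through the cirrhotic ones. Its test is thus not evidence of a direction. With a filter of at least 1 CPM in 5 libraries, 14 of these markers were higher. The part of Kupffer cells and macrophages in the results for cytokines was not tested.

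Of 53 genes of extracellular matrix and its proteases, 33 were higher and 8 lower in cirrhosis, with a median of 1.90. Eln, the core of elastic fibres, was at 112 to 422 CPM (median 185) in cirrhosis against 0.631, 0.905, 0.732, 0.804 and 1.11 CPM in fibrosis and rose by 7.96 log2 units (SE 0.73, adjusted p = 8.32e-07). Healthy LSECs overlapped the cirrhotic ones for Eln, at 102.5 to 252.7 CPM, and LSECs of acute injury had 0.161 to 0.463 CPM. Col3a1, a fibrillar collagen, was at 33.9, 29.1, 17.5, 24.6 and 9.19 CPM in the fibrotic libraries and at 386 to 1434 CPM (median 929) in the cirrhotic ones and rose by 5.31 log2 units (SE 0.38, adjusted p = 8.53e-08). Its healthy level was 116.6 to 484.3 CPM. Col1a1, the main fibrillar collagen of scars, was not a DEG (-0.20 log2 units, SE 0.57, adjusted p = 0.76), with 17.6 to 78.8 CPM in fibrosis and 14.1 to 149 CPM in cirrhosis and 2.93 to 14 CPM in healthy LSECs. Col4a1 and Col4a2, the basement-membrane collagen made by endothelium, were not DEG (0.14 log2 units, SE 0.15, adjusted p = 0.403 and 0.34 log2 units, SE 0.14, adjusted p = 0.0416). Mmp2 rose by 2.34 log2 units (SE 0.33, adjusted p = 4.04e-05), and the inhibitors Timp1 and Timp3 rose by 1.39 log2 units (SE 0.23, adjusted p = 0.000136) and 2.66 log2 units (SE 0.14, adjusted p = 6.87e-09). Healthy LSECs had 10.2 to 30.4 CPM of Mmp2, 80.2 to 312 CPM of Timp1 and 344 to 721 CPM of Timp3. These ranges overlapped those in cirrhosis.

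The 8 members that fell were the proteases Mmp3, Mmp13, Mmp10 and Mmp9, the matrix proteins Tnc, Nid2 and Lamc1 and the crosslinker Lox. Mmp3 (stromelysin 1) had a mean of 143 CPM in fibrosis and 0.261 CPM in cirrhosis and fell by 9.29 on the log2 scale. Mmp13, a collagenase, had means of 94.5 CPM and 0.283 CPM and fell by 8.77, and Mmp10, a related gene whose counts may have been split with Mmp3, fell by 7.99. Tnc, tenascin C, had means of 107 CPM and 1.11 CPM and fell by 6.64. Mmp9, a gelatinase, was at 63.9, 29.9, 72.1, 132 and 59.1 CPM in fibrosis and at 3.77 to 15.3 CPM (median 8.83) in cirrhosis and fell by 2.96 log2 units (SE 0.44, adjusted p = 5.23e-05). Lox, which crosslinks collagen and elastin, was at 2.47 to 8.97 CPM (median 3.58) in cirrhosis against 37.8, 42.4, 29.9, 21.4 and 7.99 CPM in fibrosis and fell by 2.70 log2 units (SE 0.51, adjusted p = 0.000402), with 1 cirrhotic library above the lowest fibrotic one. Mmp12, an elastase of macrophages, was not a DEG (-0.08 log2 units, SE 0.56, adjusted p = 0.903). Markers of stellate cells and fibroblasts were higher in cirrhosis in 15 of 18 members, but their summed level overlapped, at 1370 to 1850 CPM in fibrosis and 1230 to 2890 CPM in cirrhosis, with none at 0. Col3a1, Col1a1 and Hgf belong to this marker list too. The part of these cells in the results for matrix genes was not tested.

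The genes of extracellular vesicles (EVs) that the study picked from these same samples are not independent evidence of a direction. Of these 17 genes 9 were higher and 3 lower in cirrhosis than in fibrosis. Cd9 and Cd81, tetraspanins of EV membranes, rose by 3.03 log2 units (SE 0.30, adjusted p = 1.79e-06) and 2.12 log2 units (SE 0.085, adjusted p = 7.94e-10), and Cd81 was at 145, 139, 138, 131 and 127 CPM in the fibrotic libraries and at 488 to 676 CPM (median 588) in the cirrhotic ones. Cd9 also belongs to the list of Kupffer cell and macrophage markers, and the part of these cells in its rise was not tested. Sphk1, a sphingosine kinase, rose by 3.54 log2 units (SE 0.50, adjusted p = 3.72e-05), and Flot2 by 1.22 log2 units (SE 0.095, adjusted p = 1.92e-07). Cers6, a ceramide synthase, and Chmp4bl1, an ESCRT-III gene, fell by 2.16 log2 units (SE 0.17, adjusted p = 2.68e-07) and 0.95 log2 units (SE 0.074, adjusted p = 1.95e-07), and the ESCRT ATPase gene Vps4a fell by 0.73 log2 units (SE 0.077, adjusted p = 2.88e-06). The ESCRT-I genes Tsg101, Vps28 and Mvb12a stayed under the fold-change threshold, at -0.54, 0.51 and 0.50 (log2).

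Among 54 other genes of vesicle biogenesis and secretion, 20 were higher and 17 lower, and the median was 0.10, or -0.01 with library size as the only scaling. Rab27a, which docks secretory vesicles at the plasma membrane, was at 9.53, 7.65, 7.62, 6.89 and 7.73 CPM in fibrosis and at 83.2 to 110 CPM (median 99.7) in cirrhosis and rose by 3.63 log2 units (SE 0.12, adjusted p = 2.6e-10). The ESCRT-0 genes Hgs and Stam fell by 1.77 log2 units (SE 0.084, adjusted p = 3.21e-09) and 1.80 log2 units (SE 0.11, adjusted p = 2.09e-08). Pdcd6ip (Alix) and Cd63 fell by 0.82 log2 units (SE 0.10, adjusted p = 1.31e-05) and 0.88 log2 units (SE 0.12, adjusted p = 4.11e-05). Cd151, another tetraspanin, rose by 4.54 log2 units (SE 1.18, adjusted p = 0.0038), with no counts in 1 fibrotic library.

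Of 27 genes of antigen presentation, 18 were higher and 1 lower. The invariant chain Cd74, which escorts MHC class II, was at 855 to 2547 CPM (median 1777) in cirrhosis against 283, 92.2, 179, 83.5 and 32.1 CPM in fibrosis and rose by 3.95 log2 units (SE 0.52, adjusted p = 1.96e-05). RT1-Ba, an MHC class II chain, rose by 4.14 log2 units (SE 0.50, adjusted p = 9.62e-06). Ciita, the class II transactivator, rose by 1.70 log2 units (SE 0.49, adjusted p = 0.00692) with overlapping libraries. B2m, the light chain of MHC class I, rose by 0.75 log2 units (SE 0.15, adjusted p = 0.000535), and the class I gene RT1-A1 fell by 0.85 log2 units (SE 0.24, adjusted p = 0.00694). RT1 genes have many near-identical copies, and counts may have been split between them. The Kupffer cell markers given above and 6 of 8 dendritic cell markers were higher in cirrhosis too, but the summed level of the dendritic cell markers, 124 to 395 CPM in fibrosis and 106 to 180 CPM in cirrhosis, overlapped. The part of these cells was not tested.

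Of 29 interferon-stimulated genes, 19 were higher and 3 lower, and for 9 of the 29 the groups did not overlap, fewer than the background of 63.3%. Ifit1 was at 3.47, 3.5, 3.66, 23.8 and 1.6 CPM in the fibrotic libraries and at 297 to 677 CPM (median 435) in the cirrhotic ones and rose by 6.61 log2 units (SE 0.50, adjusted p = 1.51e-07). Irf1, an interferon-induced transcription factor, rose by 3.93 log2 units (SE 0.24, adjusted p = 2.62e-08). Isg15 rose by 1.74 log2 units (SE 0.49, adjusted p = 0.00625) with overlapping libraries. The guanylate-binding proteins Gbp4 and Gbp5 fell by 2.31 log2 units (SE 0.17, adjusted p = 1.44e-07) and 1.57 log2 units (SE 0.24, adjusted p = 7.81e-05). Healthy LSECs ranged from 7.74 to 708 CPM for Ifit1, a range that holds all cirrhotic libraries.

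Of 43 cell-cycle genes, 21 were higher and 10 lower. Mki67, a marker of cycling cells, was at 6.43, 5.24, 7.98, 5.02 and 3.94 CPM in fibrosis and at 9.07 to 34.7 CPM (median 16.9) in cirrhosis and rose by 1.72 log2 units (SE 0.39, adjusted p = 0.00142). Top2a rose by 2.72 log2 units (SE 0.58, adjusted p = 0.000996) from a low level, and Ccnb1 was not a DEG (-0.18 log2 units, SE 0.28, adjusted p = 0.576). The D-type cyclins Ccnd1 and Ccnd2 rose by 3.46 log2 units (SE 0.23, adjusted p = 4.32e-08) and 2.22 log2 units (SE 0.13, adjusted p = 1.75e-08). Cdkn2b, an inhibitor of cyclin D kinases, was at 3.44 to 9.88 CPM (median 6.01) in cirrhosis against 58.5, 84.7, 69.1, 64.6 and 65.2 CPM in fibrosis and fell by 3.57 log2 units (SE 0.23, adjusted p = 3.16e-08). Ccng1, a target of p53, fell by 2.60 log2 units (SE 0.19, adjusted p = 9.97e-08), and Cdkn1a (p21), another target, stayed under the fold-change threshold (0.33 log2 units, SE 0.14, adjusted p = 0.0405).

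NRF2 antioxidant genes had the lowest median of the lists, -1.36, with 23 of 27 lower and 2 higher in cirrhosis. NRF2 is a transcription factor that is kept low by Keap1 and, under oxidative or electrophilic stress, binds antioxidant response elements in its target genes. Slc7a11, the cystine importer that feeds glutathione synthesis, was at 175, 202, 164, 185 and 232 CPM in the fibrotic libraries and at 0.477 to 2.98 CPM (median 1.21) in the cirrhotic ones and fell by 7.18 log2 units (SE 0.32, adjusted p = 1.7e-09). Nqo1, a quinone reductase, was at 647, 622, 581, 529 and 637 CPM in fibrosis and at 37.1 to 105 CPM (median 87.9) in cirrhosis and fell by 3.04 log2 units (SE 0.27, adjusted p = 6.58e-07). Gclm, a subunit of the first enzyme of glutathione synthesis, was at 19.5 to 25.7 CPM (median 23.4) in cirrhosis against 86.8, 90.3, 117, 115 and 105 CPM in fibrosis and fell by 2.15 log2 units (SE 0.10, adjusted p = 3.15e-09). Me1, the malic enzyme that makes NADPH, was at 142, 160, 154, 148 and 176 CPM in the fibrotic libraries and at 13.3 to 22 CPM (median 14.9) in the cirrhotic ones and fell by 3.26 log2 units (SE 0.14, adjusted p = 9.91e-10). In these 4 genes no library of cirrhosis reached the lowest library of fibrosis. Hmox1, haem oxygenase, fell by 2.01 log2 units (SE 0.31, adjusted p = 8.03e-05). The 2 members that rose were the glutathione transferases Gstm1, at 55, 87.5, 44.9, 81.9 and 71.8 CPM in fibrosis and at 80.4 to 214 CPM (median 140) in cirrhosis with overlapping groups, and Gsta3, by 0.82 (log2). Nfe2l2, which encodes NRF2, was not a DEG at 0.40 (log2). The levels in healthy LSECs, 38.2 to 131 CPM for Nqo1 and 13.9 to 25.7 CPM for Me1, overlapped those in cirrhosis.

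The promoters of Gclm and Me1 are printed because both genes belong to this falling group and hold the core of the antioxidant response element, TGACNNNGC on either strand, which stands in capitals. The bases before the gene start are from RefSeq, build GRCr8 (not the build the reads were mapped to), on the strand of the gene, at chr2:213031885-213032134 (+) for Gclm and chr8:96540245-96540494 (-) for Me1.
Gclm: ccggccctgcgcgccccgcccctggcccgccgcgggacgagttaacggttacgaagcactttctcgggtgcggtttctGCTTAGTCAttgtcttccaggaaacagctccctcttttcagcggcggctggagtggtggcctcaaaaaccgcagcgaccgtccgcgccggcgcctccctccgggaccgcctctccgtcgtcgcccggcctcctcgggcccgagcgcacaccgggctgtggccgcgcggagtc
Me1: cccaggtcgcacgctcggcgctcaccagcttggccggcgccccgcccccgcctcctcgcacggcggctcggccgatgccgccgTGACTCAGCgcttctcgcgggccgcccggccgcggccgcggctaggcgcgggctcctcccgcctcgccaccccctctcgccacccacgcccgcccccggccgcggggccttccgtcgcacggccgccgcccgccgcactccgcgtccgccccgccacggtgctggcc
Of 22 members with an entry in the promoter table, 6 held the core in the 250 bases before the gene start. Of all promoters of that length, 10.1% held it. A member with several entries counted if any of them matched, whereas the share over all promoters is per entry, so these are unlike measures. These were the promoters of Gclm, Me1, Txnrd1, Gstp1 and Prdx1, which fell, and of Gsta3, which rose. The same core stood in 5 of 26 immediate-early genes (19.2%), counted in the same way per member. The match in Me1 contains the AP-1 site TGANTCA in its letters. A match describes letters and not a bound site.

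**Figure D3:**
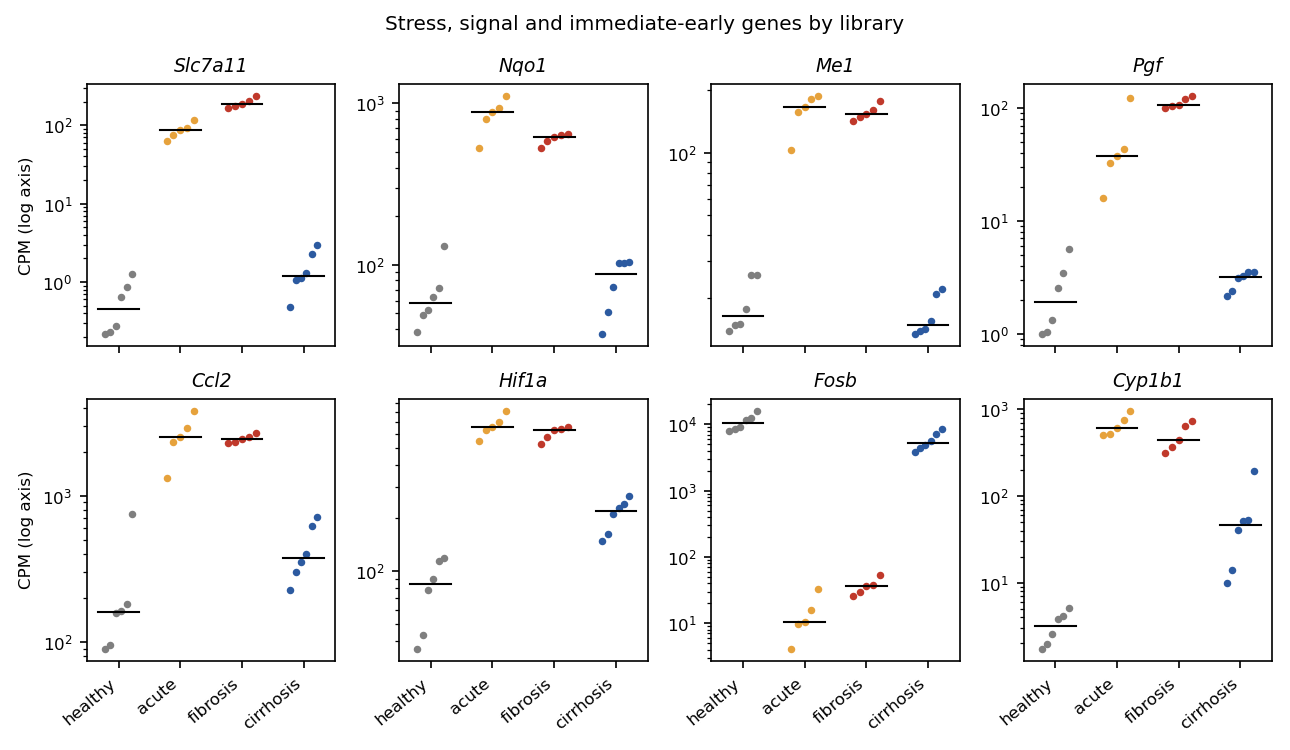
CPM on a log axis of 8 stress, signal and immediate-early genes in the 22 libraries of the CCl4 experiment, with 1 point per library and a bar at the group median. Except for Fosb, cirrhotic libraries lie below fibrotic ones, and for Hif1a and Cyp1b1 they lie above the healthy libraries.

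Genes of the unfolded protein and integrated stress response fell in 15 of 37 members and rose in 5. The larger falls included genes of amino acid supply. Asns (asparagine synthetase) was at 7.63 to 18.5 CPM (median 13.2) in cirrhosis against 160, 159, 129, 133 and 161 CPM in fibrosis and fell by 3.55 log2 units (SE 0.18, adjusted p = 6.07e-09), and Trib3 fell by 3.21 log2 units (SE 0.28, adjusted p = 5.19e-07). Psat1 and Shmt2, enzymes of serine and glycine synthesis, fell by 3.87 and 2.84 on the log2 scale, and the list holds Slc7a11, described above, too. Hspa5 (BiP), the main chaperone of the endoplasmic reticulum, was at 1450, 1694, 1641, 1722 and 1623 CPM in the fibrotic libraries and at 2841 to 5391 CPM (median 4137) in the cirrhotic ones and rose by 1.31 log2 units (SE 0.14, adjusted p = 2.74e-06), and Xbp1, a transcription factor of the unfolded protein response, rose by 1.43 log2 units (SE 0.085, adjusted p = 1.98e-08). Atf4 and Ddit3 were not DEG (0.18 log2 units, SE 0.11, adjusted p = 0.159 and 0.50 log2 units, SE 0.10, adjusted p = 0.00086).

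Of 28 genes of glycolysis and the response to hypoxia, 15 were lower and 4 higher in cirrhosis. Slc2a1, the glucose transporter GLUT1, was at 465, 410, 518, 390 and 375 CPM in fibrosis and at 26 to 61.9 CPM (median 52.9) in cirrhosis and fell by 3.19 log2 units (SE 0.22, adjusted p = 6.19e-08). Hif1a, the hypoxia-inducible factor, was at 148 to 266 CPM (median 220) in cirrhosis against 577, 525, 656, 641 and 638 CPM in fibrosis and fell by 1.57 log2 units (SE 0.15, adjusted p = 1.34e-06). Pgk1, a glycolytic enzyme, fell by 2.04 log2 units (SE 0.10, adjusted p = 5.44e-09). Pfkm and Egln3 rose by 2.34 log2 units (SE 0.19, adjusted p = 2.6e-07) and 1.17 log2 units (SE 0.23, adjusted p = 0.000514), and Ldha and Pfkfb3 were not DEG (-0.02 log2 units, SE 0.11, adjusted p = 0.866 and -0.003 log2 units, SE 0.22, adjusted p = 0.99). Few genes of oxidative phosphorylation passed the test, with 8 of 63 genes higher, 2 lower and a median of 0.03, which was -0.08 with library size as the only scaling. Its largest rise was that of Ndufa8, a subunit of complex I, by 1.26 log2 units (SE 0.12, adjusted p = 1.61e-06), and its largest fall that of Cyc1, a subunit of complex III, which fell by 0.80 log2 units (SE 0.075, adjusted p = 1e-06).

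Of 31 genes of cholesterol synthesis and uptake, 11 were higher and 7 lower. Hmgcs1, an enzyme of cholesterol synthesis, rose by 0.81 log2 units (SE 0.12, adjusted p = 5.28e-05). Nr1h3 (LXRα), a nuclear receptor for oxysterols, rose by 2.93 log2 units (SE 0.25, adjusted p = 4.39e-07), whereas its target Abca1, a cholesterol exporter, fell by 1.55 log2 units (SE 0.15, adjusted p = 1.57e-06).

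Of 7 genes of the aryl hydrocarbon receptor pathway 4 were lower and 1 higher. Cyp1b1 was at 318, 441, 371, 645 and 730 CPM in the fibrotic libraries and at 9.83 to 193 CPM (median 46.6) in the cirrhotic ones and fell by 3.65 log2 units (SE 0.66, adjusted p = 0.000284). Cyp1a1 was at 35.8, 52.2, 13.7, 65.2 and 40.8 CPM in fibrosis and at 0.509 to 66.8 CPM (median 5.39) in cirrhosis and fell by 2.92 log2 units (SE 0.84, adjusted p = 0.00715), with overlapping libraries, and was not a DEG with edgeR (adjusted p = 0.166). Cyp1a2, a hepatocyte gene, rose by 1.55 log2 units (SE 0.59, adjusted p = 0.0301) with overlapping libraries and was not a DEG without fibrotic library 12 or 13. The receptor Ahr and its repressor Ahrr fell by 1.28 and 2.29 on the log2 scale.

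Cytosolic ribosomal protein genes were lower in cirrhosis in 45 of 72 members and higher in 1, with a median of -0.75. The falls were small beside those above, between 0.59 (Rps15a) and 2.25 (Rpl39) on the log2 scale, and none of the 26 others was above -0.16 (Rpl9). Rps6 was at 194 to 291 CPM (median 234) in cirrhosis against 961, 1034, 1019, 982 and 1003 CPM in fibrosis and fell by 2.12 log2 units (SE 0.10, adjusted p = 3.15e-09). Rps19 rose by 2.62 log2 units (SE 0.34, adjusted p = 1.84e-05). Ribosomal protein genes have many processed copies in the genome, and counts may have been split between them.

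Genes of the cytoskeleton rose in 14 of 33 members and fell in 8. Among the tropomyosins, which wrap actin filaments, Tpm1 was not a DEG (-0.11 log2 units, SE 0.18, adjusted p = 0.587), Tpm2 rose by 1.89 log2 units (SE 0.24, adjusted p = 1.26e-05) and Tpm4 fell by 1.61 log2 units (SE 0.11, adjusted p = 7.46e-08). Tpm1 was at 35.9, 46.8, 28.4, 57.1 and 25.3 CPM in the fibrotic libraries and at 32 to 37.5 CPM (median 33.5) in the cirrhotic ones, and the range of the cirrhotic libraries lay within that of the fibrotic ones. Myl9, a myosin light chain of contractile cells, rose by 3.55 log2 units (SE 0.53, adjusted p = 5.48e-05). The mechanosensitive gene Cyr61 was not a DEG (-0.34 log2 units, SE 0.25, adjusted p = 0.235).

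Among the largest differences outside these lists, Mmd was at 1722, 1906, 2165, 2000 and 1820 CPM in fibrosis and at 9.4 to 21.8 CPM (median 12) in cirrhosis and fell by 7.20 log2 units (SE 0.19, adjusted p = 9.63e-11). Akr1b10, an aldo-keto reductase, was at 14.5 to 78.7 CPM (median 46.2) in cirrhosis against 5074, 4891, 5324, 4099 and 4258 CPM in fibrosis and fell by 6.87 log2 units (SE 0.43, adjusted p = 3.15e-08). Ptprn, Ampd3, Cobll1 and Slc6a9 fell by 5.83 log2 units (SE 0.16, adjusted p = 1.46e-10), 5.36 log2 units (SE 0.17, adjusted p = 2.6e-10), 4.83 log2 units (SE 0.12, adjusted p = 7.41e-11) and 4.46 log2 units (SE 0.21, adjusted p = 2.64e-09). The healthy libraries were at 7.31 to 15.1 CPM for Mmd and 19.7 to 63.5 CPM for Akr1b10, with the cirrhotic libraries, and the acute ones, at 1984 to 2448 CPM and 3859 to 7422 CPM, with the fibrotic libraries. Pkhd1l1 was at 1.78, 1.9, 1.66, 2.18 and 1.95 CPM in the fibrotic libraries and at 142 to 309 CPM (median 186) in the cirrhotic ones and rose by 6.66 log2 units (SE 0.34, adjusted p = 5.34e-09). Srpx rose by 6.46 log2 units (SE 0.50, adjusted p = 1.88e-07). Pck1, the key enzyme of gluconeogenesis in hepatocytes, was at 1.09, 1.31, 2.53, 2.64 and 2.01 CPM in fibrosis and at 118 to 350 CPM (median 239) in cirrhosis and rose by 6.98 log2 units (SE 0.47, adjusted p = 5.82e-08). It is outside the pathway lists but is one of the hepatocyte markers counted below.

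Markers of other liver cells differed between the stages in ways that varied by cell type, and several summed levels overlapped. Of 20 hepatocyte markers, 17 were higher in cirrhosis and none lower. Their summed level was 1550 to 6260 CPM in fibrosis and 4000 to 18100 CPM in cirrhosis, so that the ranges overlapped, and 1710 to 35700 CPM in healthy LSECs. T and NK cell markers were higher in 11 of 16 members, with summed levels of 12.2 to 95.4 CPM in fibrosis and 137 to 294 CPM in cirrhosis. With a filter of at least 1 CPM in 5 libraries, 9 of them were higher. Of 11 neutrophil markers only 5 could be tested, and all 5 were higher. The 11 summed to at most 3.01 CPM in fibrosis and 15.5 CPM in cirrhosis. At such levels a marker passed the low-count filter largely through the cirrhotic libraries, so the count is not evidence of a direction. B cell markers (5 of 8 higher, 1 lower) and cholangiocyte markers (5 of 10 higher, 1 lower) had overlapping sums, of 52 to 117 and 48 to 207 CPM for B cells and 12.4 to 114 and 11.4 to 41.3 CPM for cholangiocytes. Markers of erythroid cells and platelets (1 of 6 higher, 1 lower) summed to 10.2 to 17.7 CPM and 13.4 to 64.7 CPM. Those of mesothelium (5 of 8 higher, 2 lower) summed to 157 to 362 CPM in fibrosis and 80.4 to 128 CPM in cirrhosis. The part of these cells in the differences of single genes was not tested.

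**Figure D4:**
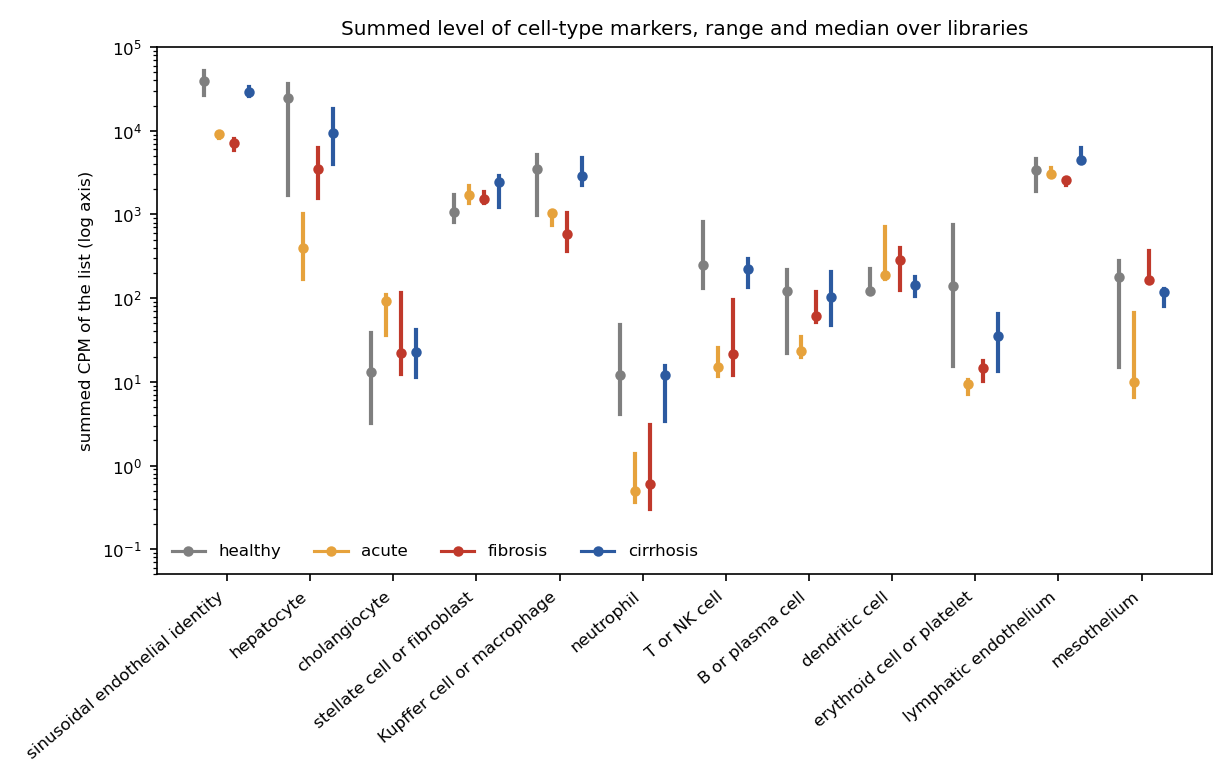
Summed CPM of marker lists on a log axis in healthy, acute, fibrotic and cirrhotic LSECs, where lines run from the lowest to the highest library and points are medians. Sinusoidal endothelial markers sum to 5900 to 7960 CPM in fibrosis and 26000 to 33600 CPM in cirrhosis, and Kupffer cell markers to 362 to 1050 CPM and 2250 to 4740 CPM.

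For most DEG the healthy level lay on the side of cirrhosis. Of the 5202 genes that were higher in cirrhosis, the healthy median lay within the range of the cirrhotic libraries for 1402 and beyond it for 2055, and of the 4484 that were lower for 1091 and 2037. It lay within the range of the fibrotic libraries for 573 of the higher and 278 of the lower genes, and strictly between the groups for 887 and 689. The lists, with 771 tested genes, were chosen with earlier results of these data known. Of these 771 genes, 650 had the same sign in cirrhosis minus fibrosis as in healthy minus acute injury. The share with the same sign was not computed over all tested genes. Whether a technical difference between libraries has a part in the place of the healthy and acute libraries was not tested, and it would bear on each difference given above.

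To ask where cirrhosis minus fibrosis differs from healthy minus acute injury, a pair of differences that share no library, the difference of these differences was tested in a fit over the 22 CCl4 libraries. Of 15578 genes, 3255 (20.9%) had a positive and 3458 (22.2%) a negative difference of differences as DEG. With library size as the only scaling the positive share of these DEG was 69.3% in place of 48.5%. The healthy libraries had TMM factors of 0.712 to 0.939, below those of cirrhosis and fibrosis. Ccl21 had a positive value of 7.11 log2 units (SE 1.02, adjusted p = 9e-05), and that of Ptx3 was larger, 7.66 log2 units (SE 0.91, adjusted p = 3.54e-05). Among genes with an established symbol and a mean log2 CPM of at least 3 over the 22 libraries, Lpl, lipoprotein lipase, had the largest positive value. It was 5.84 log2 units (SE 1.19, adjusted p = 0.000935). Lpl was at 2.3 to 9.24 CPM in fibrosis, 22.1 to 53.7 CPM in cirrhosis, 1.05 to 3.23 CPM in healthy LSECs and 1.52 to 113 CPM in acute injury. Mmp12 had 5.00 log2 units (SE 0.91, adjusted p = 0.000437), Cd163, a haemoglobin scavenger receptor of macrophages, 3.80 log2 units (SE 1.08, adjusted p = 0.00788), and Abcc9, a potassium channel regulator, 3.49 log2 units (SE 0.52, adjusted p = 0.000114).

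Among positive values whose cirrhotic libraries all lay above the healthy ones were Ednrb (3.04 log2 units, SE 0.36, adjusted p = 3.53e-05), Il6 (3.50 log2 units, SE 0.60, adjusted p = 0.000275), Hgf (2.45 log2 units, SE 0.62, adjusted p = 0.0041) and Plat (1.60 log2 units, SE 0.33, adjusted p = 0.00107). Cyp1b1 (4.12 log2 units, SE 0.86, adjusted p = 0.00111), Cyp1a1 (6.14 log2 units, SE 1.66, adjusted p = 0.00597) and Hif1a (1.63 log2 units, SE 0.36, adjusted p = 0.00158) were also positive. They were lower in cirrhosis than in fibrosis, and for Cyp1b1 and Hif1a every cirrhotic library lay above every healthy one. Among negative values, Stab1 had -2.23 log2 units (SE 0.30, adjusted p = 7.01e-05), Klf2 -2.08 log2 units (SE 0.52, adjusted p = 0.00348), Nos3 -1.23 log2 units (SE 0.26, adjusted p = 0.00113), Dll4 -1.35 log2 units (SE 0.28, adjusted p = 0.00117) and Gata4 -1.27 log2 units (SE 0.22, adjusted p = 0.000281), and for Stab1, Nos3, Dll4 and Gata4 no cirrhotic library reached a healthy one. Of 35 immediate-early genes 23 were negative and 2 positive, and of 63 oxidative phosphorylation genes 26 were negative and 7 positive. With library size alone these counts were 20 and 5, and 17 and 10. Of 17 EV genes picked by the study 8 were negative and 2 positive, or 7 and 4 with library size alone.

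The 6 most negative values among such genes with a mean log2 CPM of at least 3 were of hepatocyte genes, -5.70 log2 units (SE 0.96, adjusted p = 0.000246) for Hpd, -5.45 log2 units (SE 1.38, adjusted p = 0.00387) for Slc27a5, -5.44 log2 units (SE 1.34, adjusted p = 0.00333) for Apoa2 and -5.28 log2 units (SE 1.29, adjusted p = 0.00321), -5.28 log2 units (SE 1.64, adjusted p = 0.0134) and -5.27 log2 units (SE 1.34, adjusted p = 0.00407) for Cyp2d2, Cyp2d5 and Cyp2d1. The Cyp2d genes are similar copies, and each of their values is uncertain. Between cirrhosis and fibrosis none of these 6 was a DEG. Their healthy libraries differed widely among themselves, with 65.2 to 1249 CPM for Hpd, as did the summed hepatocyte markers given above, whose part in these values was not tested.

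**Figure D5:**
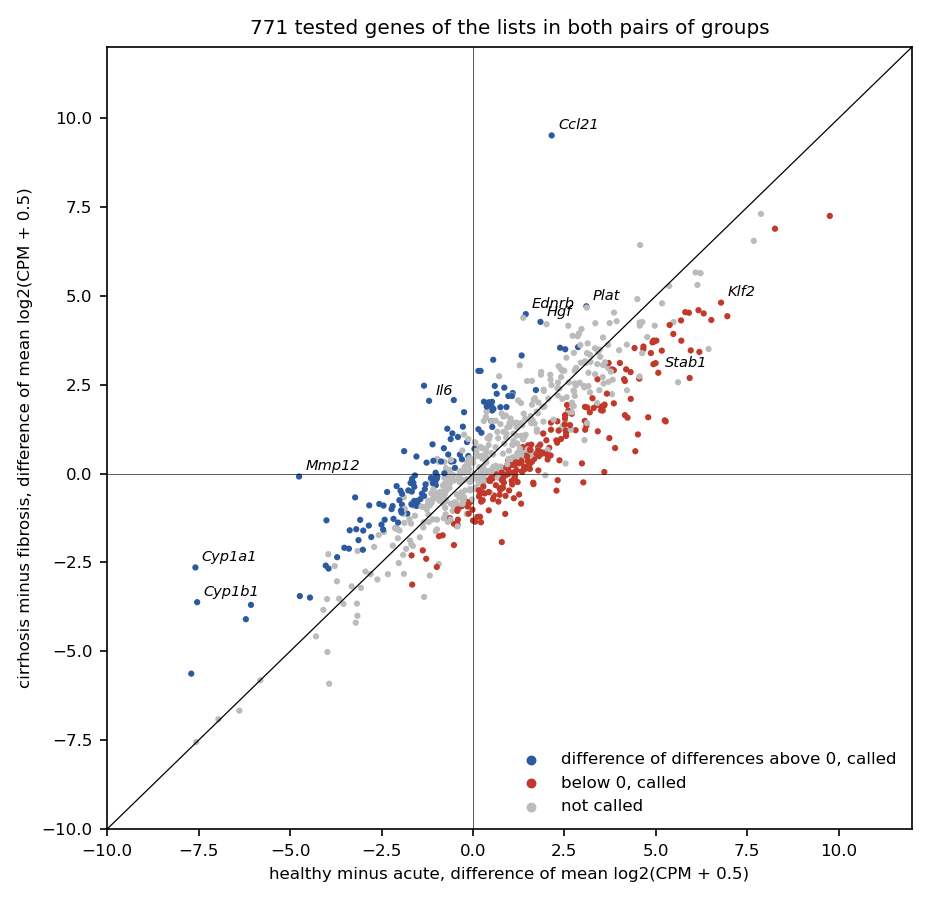
Difference of mean log2(CPM + 0.5) for 771 tested genes of the lists in cirrhosis minus fibrosis (vertical axis) against healthy minus acute injury (horizontal axis), with the line of equality. The signs agreed for 650 genes of these lists, which were chosen with earlier results known. Coloured points are the 128 genes above and 216 genes below the line whose difference of differences was a DEG.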

How the data were processed

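RNA of LSECs was sequenced in 32 rat libraries, of which 11 entered the comparison, 11 served as healthy and acute reference and 10 of another model were not used here. The authors deposited RSEM expected counts per gene (32623 genes). The submitters' notes name FastQC, Trim Galore, STAR, RSEM, limma and Rnor_6.0, and versions are not given in the sources used here. Expected counts are estimates that split reads between similar genes, so values of near-identical copies are uncertain.

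Expected counts were rounded. Low genes were removed with filterByExpr (15186 genes kept), libraries were scaled by TMM, and limma-voom (limma 3.58.1, edgeR 4.0.16, R 4.3.3) compared 6 cirrhotic with 5 fibrotic libraries, with Benjamini-Hochberg adjustment over all tested genes. DEG differed by more than 1.5-fold at an adjusted p-value below 0.05. The difference of differences was fitted over 22 libraries (15578 genes). CPM were TMM-scaled over these 22, and their log2 used a pseudocount of 0.5. Summed marker CPM cover all listed markers found in the files. The labels name separate rats by number only, and p-values measure the spread between these libraries. No library pair agreed within sampling noise.

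The gene lists (22 of pathways and 11 of markers) and the choice of members were made with earlier results of these data known. Named genes were the 10 largest rises and falls (mean log2 CPM of at least 3, no overlap), genes marked in the lists, up to 2 per list and direction, and the 6 largest differences of differences per direction. Further list members were named after their values were seen. Tests were checked on simulated data in which few genes changed, equally often up and down, or none did. That check does not cover data in which most genes differ, such as these. Alternatives covered scaling, filters, thresholds, edgeR, DESeq2 1.42.0, library weights, thinning, a replicate block and leaving out each library. Figures used matplotlib 3.10.9.

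Some genes of the lists are not reported here.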

Additional observations from a re-analysis of the deposited data

Results flagged for a closer look

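Of 330 groups of values, 23 (6.97%) had a library far from the others of its group by Dixon's criterion, which chance reaches in about 1 of 20. The groups were log2 CPM of named genes and, for each stage, total count, TMM factor and the shares of mitochondrial and of the most abundant genes. They come from the same libraries and are not independent. All 23 flagged values were of genes. Cirrhotic library 2 held 8 of these values. It was highest for Fos (3750 CPM) and Cd34 (42.92 CPM) and lowest for Pdcd6ip (214.9 CPM), Cd63 (173.8 CPM), Pfkfb3 (363.3 CPM), Ddit3 (124.9 CPM), Sphk1 (22.82 CPM) and Xbp1 (206.9 CPM). Without this library 9407 genes were DEG. Cirrhotic library 6 was highest for Nos3 (492.6 CPM), Lox (8.967 CPM) and Tpm4 (326.2 CPM), and cirrhotic library 3 was lowest for Egln3 (9.093 CPM).

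Fibrotic library 17 was lowest for Stab2 (88.65 CPM), Igfbp3 (5.046 CPM), Chmp4bl1 (73.3 CPM), Ccnd1 (5.63 CPM) and Lpl (2.304 CPM). Fibrotic library 13 was highest for Pdgfb (41.25 CPM), Ctgf (592.2 CPM) and Fosl1 (386.7 CPM). Fibrotic library 15 was highest for Fos (40.97 CPM) and Dll4 (17.76 CPM), and fibrotic library 16 for Ifit1 (23.76 CPM).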

How the results depend on the processing

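In the comparison of cirrhosis with fibrosis the number of DEG stayed within 1.5 times of 9686 under every alternative tried, from 8443 with at least 1 CPM in 5 libraries to 11895 without a fold-change threshold (11789 without a filter on low counts), and from 9290 to 9808 when 1 library was left out. edgeR gave 9642 DEG, DESeq2 9641, thinned counts 9429, and every DEG shared with the reported set had the same sign under each setting. In the difference of differences the negative DEG fell from 3458 to 2110 with library size as the only scaling, which moved the median over all genes from -0.05 to 0.28. edgeR gave 6828 DEG there in place of 6713, and leaving out 1 library gave 5950 to 7691. The fibrotic and cirrhotic libraries share no replicate number, so no paired analysis was possible for their comparison because nothing pairs them. In the difference of differences a replicate block gave 6662 DEG (correlation of libraries with the same number -0.0134). The fibrotic numbers recur in no other CCl4 group, so this value cannot tell whether libraries of the same number share more than the number.

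Genes whose direction changed were 12 that were not DEG (values in log2 units). Col1a1 was 0.09 with edgeR, 0.12 with DESeq2 and -0.58 to 0.09 with 1 library left out. Col4a1 was -0.02 with library weights. Ldha was 0.01 with DESeq2 size factors, 0.07 with upper-quartile factors, 0.01 with DESeq2, 0 without a filter and -0.08 to 0.05 with 1 library left out. Mmp12 was 0.02 with upper-quartile factors, 0.1 with weights and -0.54 to 0.18 with 1 library left out. Pdgfb was 0.04 with upper-quartile factors and -0.16 to 0.08 with 1 library left out. Pfkfb3 was 0.02 with DESeq2 size factors, without a filter and with the 1 CPM filter, 0.08 with upper-quartile factors and with weights, 0.03 with edgeR, 0.06 with DESeq2 and -0.11 to 0.2 with 1 library left out. With 1 library left out, Rspo3 was -0.32 to 0.22, Slc27a5 -0.29 to 0.42, Cyp2d5 -0.05 to 0.67, Edn1 -0.05 to 0.28, Rpl9 -0.36 to 0.01 and Tpm1 -0.25 to 0.04. The cause was not tested. Among named DEG, 8 lost the call under at least 1 alternative (Il1b, Cyp1a2, Angpt2, Cyp1a1, Gstm1, Gsta3, RT1-A1 and Rps15a), and Gata4 passed the threshold at 0.63 with upper-quartile factors. Counts of oxidative phosphorylation genes went from 8 higher and 2 lower to 21 and 15 without a fold-change threshold, those of lower ribosomal protein genes from 45 to 69, and those of higher unfolded protein response genes from 5 to 13. With the 1 CPM filter 2 in place of 5 cholangiocyte, mesothelium and neutrophil markers each were tested and higher, since fewer genes were tested.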
